A study of Homo sapiens with 6 samples.

Results

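The 9 replacement histone variant genes H1F0, H1FX, H2AFX, H2AFY, H2AFV, H2AFZ, H3F3A, H3F3B and CENPA were followed in Ago2 precipitates of HEK293 cells, an established human embryonic kidney line. They were chosen by gene name from the 48162 genes of the count table, where each name stood once, and all 9 passed the filter on low counts that left 16233 genes. Cells had received Flag-Ago2, the protein of the silencing complex that holds the small RNA, together with mimics of microRNA-219 (M219, 3 libraries) or with negative control mimics (NC, 3 libraries). RNA recovered by precipitating the tag was sequenced, with 1 library of each group from 22 August, 5 September and 18 September. All libraries thus carried the transfected Ago2, and no input RNA was used here, so the amount of a transcript in the cell and its binding to Ago2 cannot be told apart. The labels do not say whether the dates were separate cultures, so p-values measure the spread between these libraries, which may be technical.

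No replacement variant passed the test between mimic and control after adjustment over all genes. CENPA had the highest ratio, 1.43 times the control level, and H3F3A the lowest, 0.793 times. The other members lay between these. Below the control stood 7 of the 9, beside 49.7% of all genes tested and 67.5% of tested protein-coding genes of 1000 to 3000 bases. The H2AFZ, H3F3B, H2AFX, H2AFV and CENPA ratios did not keep 1 direction over the dates. Of all genes tested, 30.0% kept 1 direction.

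Histones are the proteins that DNA is wound around. The bulk of them is made during S phase from clustered, intronless genes, whose mRNAs end in a stem-loop in place of a poly(A) tail. Most replacement variants, though not all, are made throughout the cell cycle, mostly from polyadenylated mRNAs of genes outside those clusters. They are placed into chromatin by dedicated chaperones when nucleosomes are exchanged. Some members encode linker histones (H1F0, H1FX), some variants of H2A (H2AFX, H2AFY, H2AFV, H2AFZ), some the variant H3.3 (H3F3A, H3F3B), and CENPA encodes the H3 variant that marks centromeres.

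MicroRNA-219 is made from more than 1 hairpin, and which of its strands the mimics carried is not stated. The RefSeq sequences (GRCh38.p14) of the mature strands are shown because the seed, bases 2 to 8, decides which transcripts a loaded Ago2 can pair with. Capitals mark the seed.
hsa-miR-219a-5p: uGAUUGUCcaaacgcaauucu
hsa-miR-219a-1-3p: aGAGUUGAgucuggacgucccg
hsa-miR-219a-2-3p: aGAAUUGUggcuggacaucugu
The 5p strand is the same from both hairpins (chr6:33207855-33207875, plus strand, and chr9:128392676-128392696, minus strand). The 3p strands have seeds that differ from it and from each other. Pairing of these seeds with the members' transcripts was not analysed here, as no transcript sequences were used.

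Libraries held 20233819 to 34408699 counts, of which the 9 members took 0.227 to 0.305%. AGO2, the transfected gene, took 12.6 to 16.7% of counts in M219 and 10.6 to 18.0% in NC. All 9 marker genes listed for this line were tested, among them the neurofilaments NEFL and NEFM and the keratins KRT8 and KRT18. The 9 summed to 1766 to 2100 CPM in M219 and 1741 to 2183 CPM in NC. VIM and KRT8 were the highest of them in every library, and PAX2 was the lowest at 2.61 to 6.98 CPM. Markers of other cell types differed between libraries. The 5 plasma cell genes summed to 0.0345, 8.64 and 10.2 CPM in M219 and 23.5, 0.0591 and 23.1 CPM in NC (22 August, 5 September, 18 September), with the immunoglobulin genes IGHA1 and IGHA2 leading and IGKC at 0 throughout. The 8 intestinal genes summed to 0.449, 5.82 and 13.4 CPM in M219 and 21.4, 1.09 and 14.6 CPM in NC. Both lists were thus lowest in M219 of 22 August and NC of 5 September. The haemoglobin gene HBB had 23319 counts in NC of 5 September and 0 to 2 in every other library, which brought the 3 red cell genes to 699.6 CPM there, against 0.0345 to 0.190 CPM elsewhere. The 4 leukocyte genes summed to 0.916 to 1.16 CPM in M219 and 1.01 to 1.38 CPM in NC, with PTPRC at 1 count in all. The part of these genes in the members' values was not tested.

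Levels per length were compared as CPM (counts scaled to library size by TMM) per kilobase of the gene length in the authors' table. H3F3B stood highest at 318 ± 47.7 CPM per kilobase, followed by H1F0 at 268 ± 34.4 (mean ± SD over all 6 libraries). Their ranges overlapped, and H3F3B was the higher in 5 of 6 libraries. H3F3A (137 ± 30.8 CPM per kilobase), H2AFX (126 ± 16.7), H2AFZ (122 ± 26.9) and H1FX (102 ± 11.0) followed with ranges that overlapped from each to the next, so their order was not separated by the spread. Below these, without overlap between neighbours, came H2AFV at 29.8 ± 1.73, H2AFY at 22.8 ± 2.55 and CENPA at 6.35 ± 1.84 CPM per kilobase. The length given for H2AFY, 10982 bases, was far above the 1452 to 3804 bases of the other members. Its level per length depends on that figure.

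**Figure D1:**
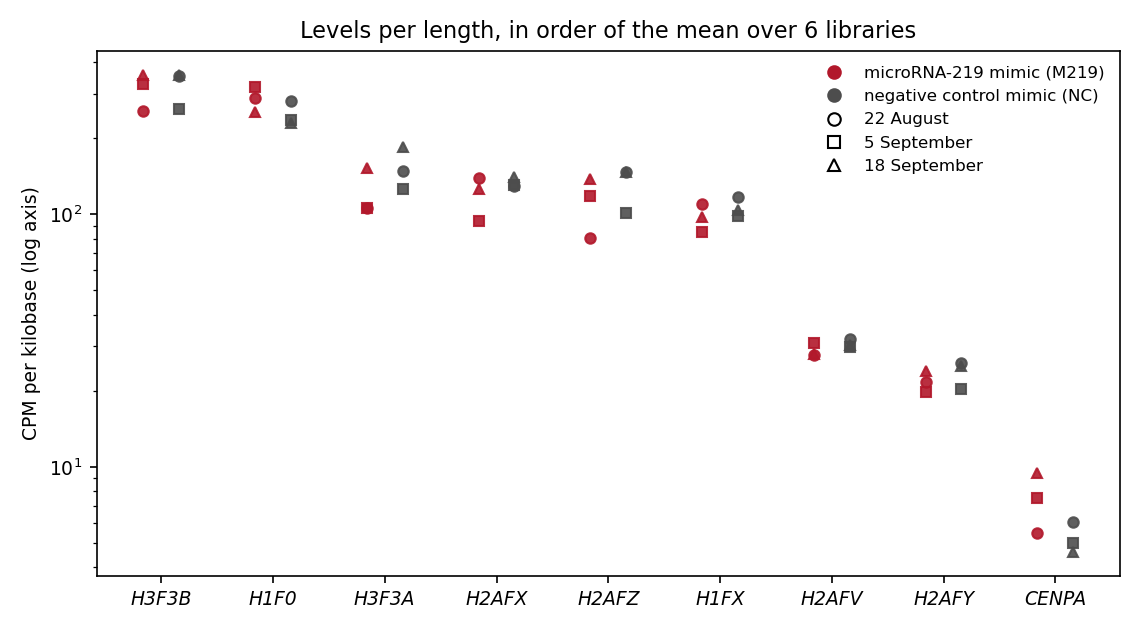
CPM per kilobase on a log axis for each member in each of the 6 libraries, in order of the mean, with M219 left of NC and the date given by the symbol. H3F3B and H1F0 stand highest and CENPA lowest, at 4.61 to 9.47 CPM per kilobase.

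Between mimic and control, 0 of the 9 members passed the adjusted p threshold of 0.05 in edgeR's quasi-likelihood test, as did 0% of the 16233 genes tested. At an unadjusted p under 0.05 there was 1 member, CENPA, against 3.01% of all genes (488). DESeq2 called 2 genes higher and 3 lower and limma-voom 0, none of them a member. The 3 M219 libraries did not lie wholly above or wholly below the 3 NC libraries for any member (0 of 9, against 8.06% of all genes). The log2 ratio kept its sign on all 3 dates for 4 of 9 members, where 30.0% of all genes did so. H1F0 was the 1 member above 0 throughout (15.6% of all genes), and H1FX, H2AFY and H3F3A were the 3 below (14.4%). The median log2 fold change of the members was −0.12 with 7 of 9 below 0, beside a median of 0.00 and 49.7% below 0 over all genes tested. Members are mostly short transcripts: 7 of 9 measured 1000 to 3000 bases. Over the 5277 tested protein-coding genes of that length the median log2 fold change was −0.08 and 67.5% lay below 0, and over the 8163 longer ones the median was 0.04. The part of gene length in the members' values was not tested. The 95% confidence interval of all 9 members lay within a 2-fold change either way.

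**Figure D2:**
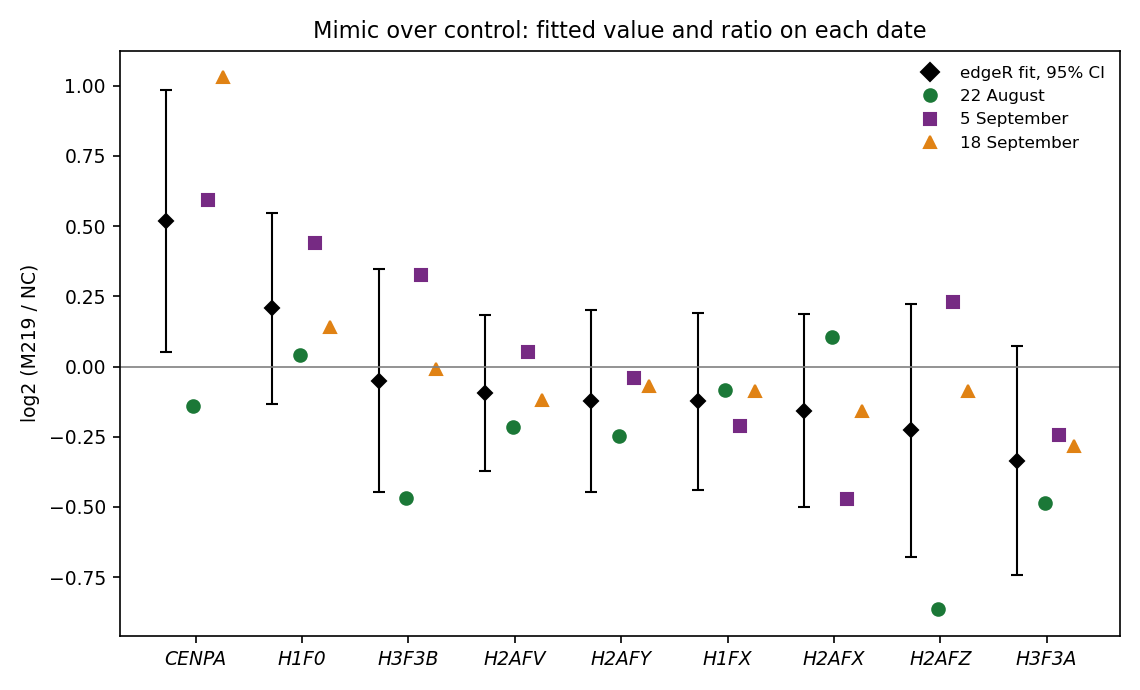
Log2 ratio of M219 over NC for each member, with the fitted value and its 95% confidence interval as a diamond and the ratio of each date as a coloured symbol. All intervals but that of CENPA span 0, and the dates of H2AFZ, H3F3B and CENPA lie furthest apart.

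Of the linker histones, which bind the DNA where it enters and leaves the nucleosome, H1F0 stood above and H1FX below the control. H1F0 (ENSG00000189060, chr22:38201114-38203442 of hg19), known for accumulating in cells that stop dividing, had 671, 744 and 589 CPM in M219 and 652, 548 and 535 CPM in NC (22 August, 5 September, 18 September). The mimic library was the higher on each date, but that of 18 September lay below the control library of 22 August, so the groups overlapped. The log2 fold change was 0.21 (SE 0.16, 95% CI −0.13 to 0.55, edgeR adjusted p = 0.999), with log2 ratios of 0.04, 0.44 and 0.14 on the 3 dates. H1FX (ENSG00000184897, chr3:129033615-129035120), a linker histone with a divergent sequence, had 166, 128 and 147 CPM in M219 and 175, 148 and 156 CPM in NC. It stood lower on each date by a small step, with log2 ratios of −0.08, −0.21 and −0.09 and overlapping groups (log2 fold change −0.12, SE 0.14). The antisense gene H1FX-AS1, which overlaps H1FX, had 46, 76 and 39 counts in M219 and 29, 56 and 17 in NC. Its log2 fold change of 0.72 (edgeR unadjusted p = 0.0479, adjusted p = 0.999) had the other sign from that of H1FX. Whether reads were counted by strand is not given in the sources used here, so reads of this pair cannot be told apart.

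All 4 H2A variants had a fitted value below 0, from −0.09 for H2AFV to −0.23 for H2AFZ. H2AFX (ENSG00000188486, chr11:118964564-118966177) encodes the variant that is phosphorylated around DNA breaks, and its gene makes mRNA of both the stem-loop and the polyadenylated kind. It had 224, 152 and 202 CPM in M219 and 208, 211 and 226 CPM in NC. The control libraries lay close together, while the mimic library of 5 September stood apart as the lowest of the 6. The log2 ratios were 0.10, −0.47 and −0.16, and the log2 fold change was −0.16 (SE 0.16). Without that mimic library it was −0.01.

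H2AFY (ENSG00000113648, chr5:134669590-134735604) encodes macroH2A, an H2A with a large extra domain that is enriched on silent chromatin. Its levels were 238, 217 and 264 CPM in M219 and 283, 223 and 276 CPM in NC. The mimic library was the lower on each date, and the levels of both groups were lowest on 5 September (log2 fold change −0.12, SE 0.15). Its relative H2AFY2, which encodes the second macroH2A, had a log2 fold change of −0.13. H2AFJ, a further H2A variant, had −0.04. These 2 were the tested genes of 11 other variant histone genes looked up. The remaining 9 had 0 to 6 counts in every library.

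H2AFZ and H2AFV encode near-identical forms of H2A.Z, the variant placed beside the starts of active genes. H2AFZ (ENSG00000164032, chr4:100869243-100871545) had 151, 222 and 259 CPM in M219 and 276, 190 and 276 CPM in NC. The mimic library of 22 August was the lowest of the 6, and on 5 September the mimic library was the higher. The log2 ratios were −0.86, 0.23 and −0.09, and the log2 fold change was −0.23 (SE 0.21, 95% CI −0.68 to 0.22, edgeR adjusted p = 0.999). It was 0.05 without both libraries of 22 August, −0.03 without M219 of 22 August and −0.38 without NC of 5 September. H2AFZ was lowest in these last 2 libraries, where the sums of the plasma cell and intestinal genes were also lowest. The log2 ratios by date had the same signs for IGHA1 (−7.80, 6.11, −0.96), PIGR (−5.95, 4.16, −0.25) and FABP1 (−5.51, 4.46, −0.42). FABP1 had 0 counts in M219 of 22 August and in NC of 5 September. The intestinal genes LGALS4 and CDH17 had these signs too, but APOA1, VIL1, APOA4 and FABP2 did not. APOA1 had 2, 4 and 6 counts in M219 and 1, 0 and 0 in NC. VIL1 had 2, 0 and 15 counts in M219 and 12, 2 and 7 in NC. Counts of APOA4 and FABP2 were 0 to 9 per library. Median log2 ratios by date had the signs of H2AFZ for the 9 members (−0.22, 0.05, −0.09). So did those of linker histone partners and HMG genes (−0.37, 0.25, −0.09) and of replication-coupled and general chaperones (−0.07, 0.14, −0.0083). The tested genes of the other variant histones had −0.23, 0.05 and −0.06. Other lists of histone genes and their partners did not have these signs. Over all genes tested the medians were 0.022, 0.00088 and −0.013. Over tested protein-coding genes of 1000 to 3000 bases they were −0.157, −0.0088 and −0.070. In the mimic library of 22 August mitochondrially encoded genes took 13.3% of the counts, where the other 5 libraries had 5.66 to 8.39%. The part of these or of the marker genes in the H2AFZ values was not tested. H2AFV (ENSG00000105968, chr7:44866390-44887682) varied least of all members, with 105, 117 and 106 CPM in M219 and 122, 113 and 115 CPM in NC. Its coefficient of variation over the 6 libraries was 5.81%, against 22.1% for H2AFZ (log2 fold change of H2AFV −0.09, SE 0.13).

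As a share of the counts of both H2A.Z genes, H2AFZ took 59.0, 65.5 and 70.9% in M219 and 69.2, 62.7 and 70.5% in NC. The mean was 65.1 ± 5.98% in M219 and 67.5 ± 4.19% in NC (SD, n = 3 each), a difference of −2.34 percentage points (two-sided exact permutation p = 0.7, where the smallest possible p is 0.1). The share was lower in M219 by 10.3 points on 22 August and higher by 2.81 points on 5 September and 0.435 on 18 September. Leaving out M219 of 22 August turned the difference to 0.737 points.

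The 250 bases before the RefSeq start of this pair (GRCh38.p14) are shown because the genes encode nearly the same protein. Capitals mark the CCAAT box, a TATA box searched as TATAAA and an element searched as TTTGAA, on either strand.
H2AFZ (chr4:99950276-99950525, minus strand): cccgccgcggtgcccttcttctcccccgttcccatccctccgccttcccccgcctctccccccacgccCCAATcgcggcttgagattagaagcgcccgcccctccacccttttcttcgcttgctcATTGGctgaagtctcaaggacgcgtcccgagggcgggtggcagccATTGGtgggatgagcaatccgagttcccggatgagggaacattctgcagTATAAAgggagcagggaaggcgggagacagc
H2AFV (chr7:44848088-44848337, minus strand): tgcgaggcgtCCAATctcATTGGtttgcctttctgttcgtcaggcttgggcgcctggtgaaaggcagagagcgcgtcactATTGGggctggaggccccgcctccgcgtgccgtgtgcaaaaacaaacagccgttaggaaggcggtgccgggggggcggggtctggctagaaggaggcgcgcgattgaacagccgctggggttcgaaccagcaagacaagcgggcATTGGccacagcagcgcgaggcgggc
The H2AFZ window held CCAAT 3 times and TATAAA once, 31 bases before the start. The H2AFV window held CCAAT 4 times and no TATAAA. Among 35116 such windows of all genes, 32.0% held CCAAT, 10.7% TATAAA and 13.3% TTTGAA. Of the 8 members with a window in the table (the furthest downstream where a gene has several starts), 6 held CCAAT, 4 held TATAAA (H1FX, H2AFX, H2AFZ and H3F3B) and 2 held TTTGAA (H2AFX and CENPA). These are matches of letters, and binding was not measured.

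H3F3A and H3F3B encode the same H3.3 protein, the H3 variant laid down at active genes and at repeats, and both genes had fitted values below 0. H3F3A (ENSG00000163041, chr1:226249552-226259702) had 198, 198 and 284 CPM in M219 and 277, 234 and 345 CPM in NC. The mimic library was the lower on each date, and in both groups 18 September was the highest, so the groups overlapped. The log2 fold change was −0.33 (SE 0.19, 95% CI −0.74 to 0.07, unadjusted p = 0.0994, edgeR adjusted p = 0.999), with log2 ratios of −0.49, −0.25 and −0.28. With the date as a block, edgeR gave −0.34 (SE 0.10, unadjusted p = 0.0137, adjusted p = 0.824), and H3F3A was then the 1 member with an unadjusted p under 0.05, where 5.75% of all genes had one. Without the block and with single libraries left out, the value ran from −0.53 without M219 of 18 September to −0.18 without NC of 18 September. H3F3B (ENSG00000132475, chr17:73772515-73781974) had 712, 914 and 990 CPM in M219 and 985, 729 and 995 CPM in NC. Its mimic library was lower on 22 August, higher on 5 September and close to the control on 18 September, with log2 ratios of −0.47, 0.33 and −0.01. The log2 fold change was −0.05 (SE 0.18), and it was above 0 at 0.08, 0.02 and 0.02 without the mimic library of 22 August or the control libraries of 22 August or 18 September. H3F3B too was lowest in M219 of 22 August and NC of 5 September, the libraries with the fewest counts of plasma cell and intestinal genes. Without NC of 5 September it was −0.18.

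**Figure D3:**
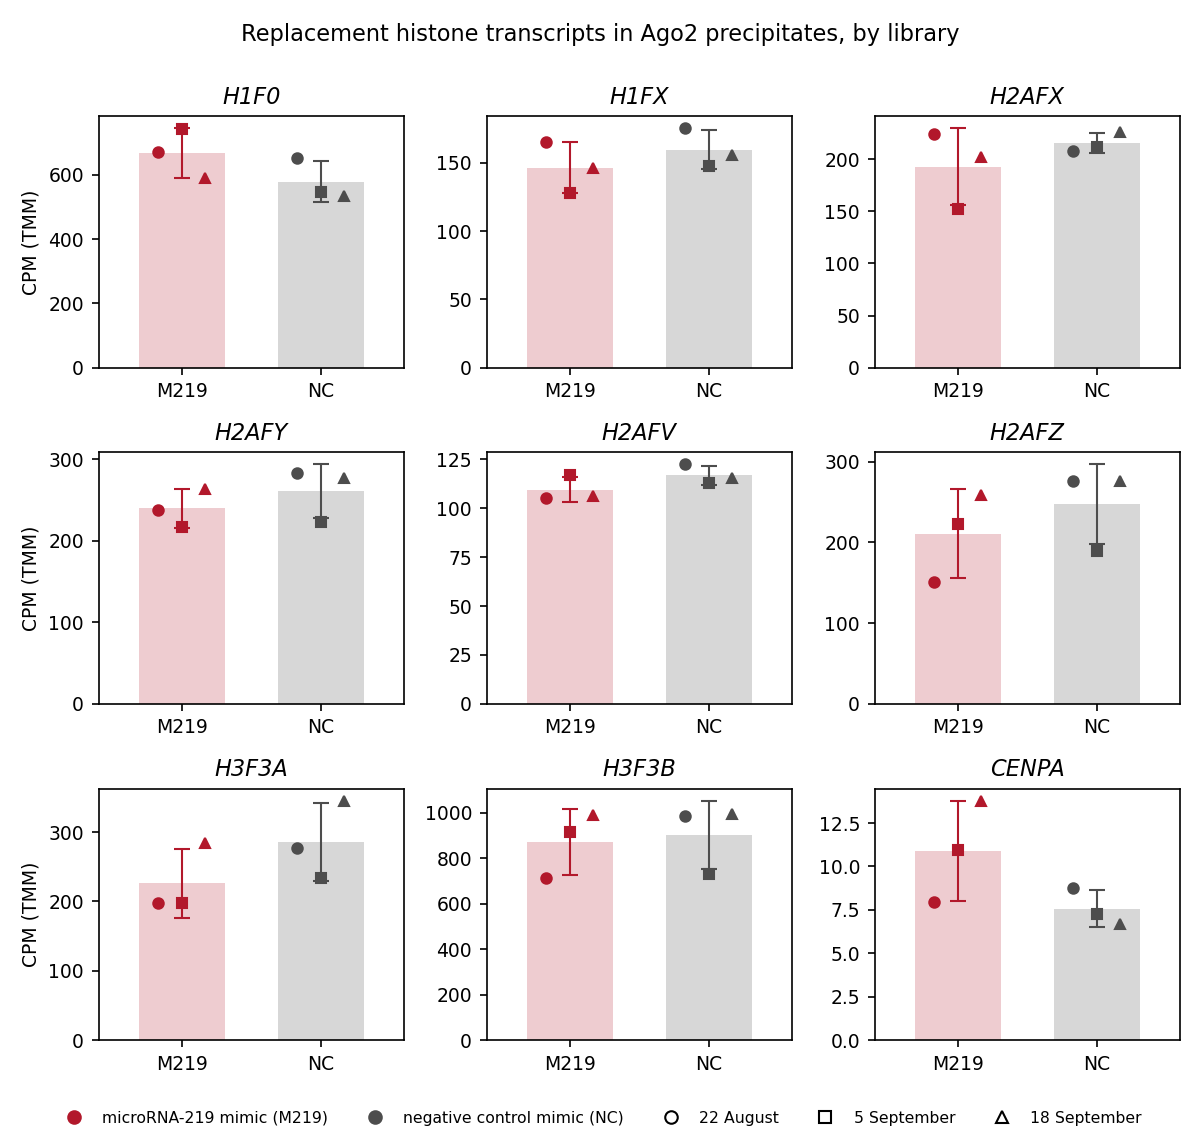
CPM of each member in each library, with M219 left of NC, bars at the mean, error bars of 1 SD (n = 3) and the date given by the symbol. The groups overlap in every panel, and in the H3F3A panel each M219 symbol lies below the NC symbol of the same date.

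H3F3A took 21.7, 17.8 and 22.3% of the counts of the H3.3 pair in M219 and 21.9, 24.3 and 25.8% in NC. The mean was 20.6 ± 2.46% in M219 and 24.0 ± 1.94% in NC (SD, n = 3 each), a difference of −3.40 percentage points (two-sided exact permutation p = 0.2, smallest possible 0.1). The share was lower in M219 on each date, with differences of −0.189 points on 22 August, −6.54 on 5 September and −3.48 on 18 September. H3F3B had 2.33 to 3.09 times the H3F3A level per kilobase in M219 and 1.93 to 2.38 times in NC.

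**Figure D4:**
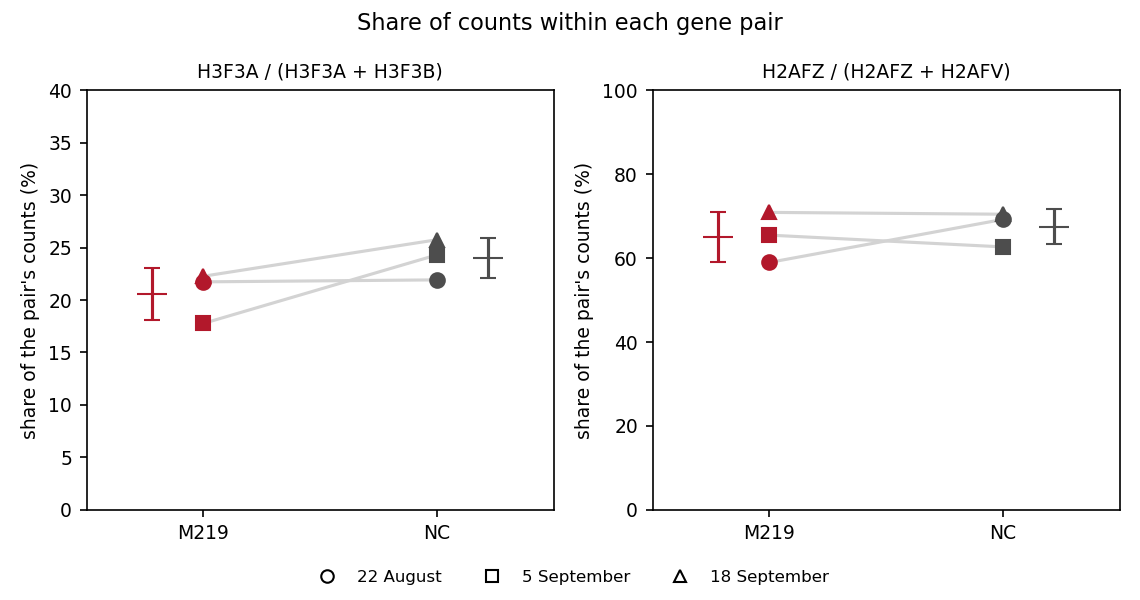
Share of a pair's counts taken by H3F3A (left, axis to 40%) and by H2AFZ (right, axis to 100%) in each library, M219 left of NC, with grey lines joining libraries of 1 date and error bars of 1 SD around the mean (n = 3). The H3F3A lines all run upwards to NC, by 0.189 to 6.54 points, while those of H2AFZ run in both directions.

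Counts of H3F3A are uncertain to the extent that reads fall on its copies. Of 12 pseudogenes of members in the table, 7 had no count in any library and 2 had more than 100 in all. H3F3AP4 (chr2:175584505-175585526) held 1354, 1391 and 1597 counts in M219 and 1689, 1904 and 1748 in NC, or 23.7 to 26.1% of the H3F3A count in every library. Its log2 fold change was −0.28 (SE 0.20), and it too was lower in M219 on each date. With pseudogene counts added to their parents the difference in the H3F3A share was −3.68 points (exact permutation p = 0.2). H3F3B overlaps the gene UNK, which runs on the opposite strand and had a log2 fold change of −0.03.
H3F3A (chr1:226062466-226062715, plus strand): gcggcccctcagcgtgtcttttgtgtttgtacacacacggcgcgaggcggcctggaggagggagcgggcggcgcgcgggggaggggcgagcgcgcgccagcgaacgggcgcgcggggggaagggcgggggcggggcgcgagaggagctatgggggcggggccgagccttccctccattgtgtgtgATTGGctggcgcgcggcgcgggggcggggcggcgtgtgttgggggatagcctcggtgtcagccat
H3F3B (chr17:75779780-75780029, minus strand): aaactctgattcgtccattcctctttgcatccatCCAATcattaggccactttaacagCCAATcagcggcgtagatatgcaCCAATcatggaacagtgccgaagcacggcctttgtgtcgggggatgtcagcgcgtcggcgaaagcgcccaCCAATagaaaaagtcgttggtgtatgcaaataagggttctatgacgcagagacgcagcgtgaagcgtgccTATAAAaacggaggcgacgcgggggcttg
These windows, marked as for H2A.Z and shown because both genes make 1 protein, cover the 250 bases before the start (for H3F3A the furthest downstream of 4 starts in the table). The H3F3B window held CCAAT 4 times and TATAAA once, 29 bases before the start. The H3F3A window held CCAAT once and no TATAAA, and its GC content was 75.2%, against 52.4% for H3F3B.

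CENPA (ENSG00000115163, chr2:26987157-27023935), whose product replaces H3 at centromeres and is laid down after mitosis, was the scarcest member. It had 230, 311 and 297 counts in M219 and 221, 245 and 141 in NC, or 7.94, 11.0 and 13.7 CPM in M219 against 8.77, 7.25 and 6.69 CPM in NC. The mimic library was slightly lower on 22 August and higher on both later dates, and the groups overlapped through that first date. The log2 fold change was 0.52 (SE 0.21, 95% CI 0.05 to 0.99, unadjusted p = 0.0323, edgeR adjusted p = 0.999), with log2 ratios of −0.14, 0.59 and 1.03. It was 0.32 without M219 of 18 September (edgeR unadjusted p = 0.175), 0.24 without both libraries of that date (unadjusted p = 0.363) and 0.49 with the date as a block (unadjusted p = 0.0618). Without both libraries of 22 August, the date with a ratio below 0, it was 0.82 (edgeR unadjusted p = 0.00327, adjusted p = 0.9998). That was the smallest unadjusted p of CENPA under 17 other settings. In the hg19 bounds used for counting, CENPA overlaps SLC35F6, which starts within a few bases of it on the same strand. SLC35F6 held 1033 to 2010 counts per library, so the counts of CENPA are uncertain where the genes overlap. SLC35F6 had a log2 fold change of −0.09. The CENPA window is shown because TTTGAA, known as the cell cycle homology element of genes that peak in late cell cycle, lies in it 18 bases before the start.
CENPA (chr2:26785806-26786055, plus strand): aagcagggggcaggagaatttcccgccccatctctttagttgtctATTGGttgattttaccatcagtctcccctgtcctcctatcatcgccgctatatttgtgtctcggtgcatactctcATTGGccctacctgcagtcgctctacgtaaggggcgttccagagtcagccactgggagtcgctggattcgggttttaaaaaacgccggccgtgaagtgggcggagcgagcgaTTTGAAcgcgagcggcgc
CCAAT stood in this window 2 times and TATAAA was not in it. The window lies before a RefSeq start in GRCh38.p14, which was not compared with the hg19 start of CENPA above.

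Between dates, in a fit that also held the mimic as a term, 0 of 9 members passed an adjusted p of 0.05, where 0.308% of all genes (50) did so in edgeR's F test. At an unadjusted p under 0.05 there was 1 member, H3F3A (edgeR unadjusted p = 0.0081, adjusted p = 0.300), against 13.2% of all genes. Between single dates 0 members passed, against 0.271% of all genes for 5 September over 22 August, 0.290% for 18 September over 22 August and 0.0123% for 18 September over 5 September. The log2 difference of H3F3A was 0.54 for 18 September over 5 September (SE 0.13, edgeR adjusted p = 0.227) and, for 18 September over 22 August, 0.42 (SE 0.13, adjusted p = 0.339). H2AFY stood 0.30 higher on 18 September than on 5 September (SE 0.12, adjusted p = 0.294), and H1FX 0.31 lower on 5 September than on 22 August (log2 value −0.31, SE 0.12, adjusted p = 0.699). H2AFV differed least, with log2 values between dates of −0.06 to 0.02. These calls depended on single libraries. Without the control library of 22 August, H2AFX, H2AFZ, H3F3A, H3F3B and CENPA were called, with 4239 genes in all. Without the mimic library of that date H2AFZ and H3F3A were called, with 2783 genes, and without the mimic library of 5 September H2AFZ, with 773. Those fits tested 16602, 16547 and 16460 genes, in that order, and leave 1 residual degree of freedom. The count of all genes was also 482 without the control library of 5 September, 164 with DESeq2 and 576 with no filter on low counts, with 0 members called in each.

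Replication-dependent histones mostly had fitted values above 0. Of 70 such genes 38 were tested, their median log2 fold change was 0.30, and 34 of 38 lay above 0 (8171 of all 16233). Of the 38, 0 passed, and 6 had an unadjusted edgeR p under 0.05, against 3.01% of all genes. By date their median log2 ratio was 0.37, 0.22 and 0.33, beside −0.22, 0.05 and −0.09 for the 9 replacement variants. The difference between the lists was not tested. HIST1H2AC, which encodes a core H2A, had 16.7, 18.7 and 24.3 CPM in M219 and 14.5, 9.32 and 11.7 CPM in NC (log2 fold change 0.75, SE 0.20). HIST1H4H, a core H4 gene, had 10.6, 11.3 and 7.82 CPM in M219 and 6.07, 7.07 and 5.65 CPM in NC (log2 fold change 0.66). Both were named for having the lowest p of the list, a choice that favours groups that do not overlap. In both the groups did not overlap, as in 8.06% of all genes tested. Neither passed (edgeR adjusted p = 0.999).

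**Figure D5:**
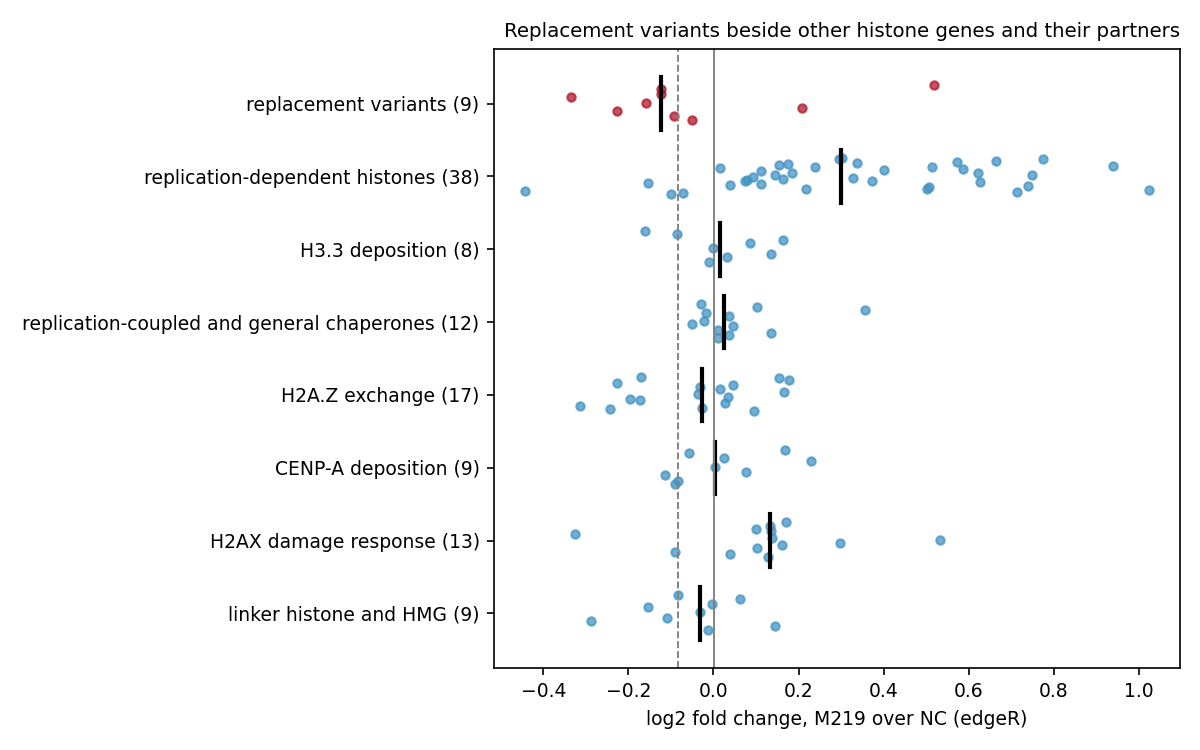
Log2 fold change of M219 over NC for each tested gene, by list, with the number tested in brackets and a black bar at the median. The solid line marks the median of all genes tested and the dashed line, at −0.08, that of protein-coding genes of 1000 to 3000 bases; the replacement variants have a median of −0.12 and the replication-dependent histones one of 0.30.

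Of the chaperones and enzymes that handle the variants 0 genes passed in any list. Over all genes tested 50.3% had a fitted value above 0. Among tested protein-coding genes it was 61.7% of those over 3000 bases and 32.5% of those of 1000 to 3000 bases. H3.3 deposition factors showed 5 of 8 genes above 0 and a median log2 fold change of 0.02. ASF1A, which hands H3 to other chaperones, had −0.16 and CABIN1, a subunit of the HIRA complex, had 0.16. Replication-coupled and general chaperones had a median of 0.02 with 8 of 12 above 0. SUPT16H, a subunit of the FACT complex, had 0.36 and NASP, which holds soluble H3 and H4, had 0.10. H2A.Z exchange factors had a median of −0.03 with 8 of 17 above 0. The lowest p belonged to RUVBL2, an ATPase of the exchange complexes (−0.31), and ZNHIT1, a subunit of the SRCAP complex (−0.24), and both ratios were below 0 on each date. CENP-A deposition factors had a median of 0.00 with 5 of 9 above 0, and CENPC1, which binds CENP-A nucleosomes, had 0.17. Genes of the H2AX damage response had a median of 0.13 with 11 of 13 above 0. Most of these are long, such as ATM (13147 bases), and the part of length was not tested. PPP4C, a phosphatase that removes the H2AX mark, had −0.33 (unadjusted p = 0.0262), and MDC1, which reads that mark, had 0.53, with a log2 ratio of 1.10 on 22 August and 0.07 and 0.26 later. Linker histone partners and HMG genes had a median of −0.03 with 2 of 9 above 0 (HMGN3, a nucleosome-binding protein, −0.29; PTMA, which binds H1, −0.15).

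Profiles most like those of the members over the 6 libraries were found by the root mean square difference of centred log2 CPM. The nearest gene was DDX49 for H2AFX (0.00825), MAP4K5 for H2AFV (0.0208), MRPS31 for H3F3B (0.0238), DNAJC7 for H2AFY (0.0284), UQCRFS1 for H3F3A (0.0323), TMBIM6 for H1FX (0.0338), ARHGAP12 for H1F0 (0.0378), GABARAPL2 for H2AFZ (0.0415) and PHYHIPL for CENPA (0.0668). Among the members themselves H1FX and H2AFX were each other's nearest (0.116), as were H2AFZ and H3F3B (0.133), and H1FX was the nearest to H2AFY (0.118). For each member, 342 (H2AFZ) to 3676 (H2AFV) other tested genes were closer than its nearest fellow member.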

How the data were processed

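RNA from Flag-Ago2 precipitates of 6 HEK293 libraries was counted per gene by the authors. The submitters' processing notes name STAR 2.5, HTSeq 0.6.1 and the build hg19. The deposited counts were used as given, and 0 columns of per-sample values were left unmapped. Gene lengths are those of the deposited table.

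Each library's group and date is that of its label. The fit used edgeR 4.0.16 under R 4.3.3 (quasi-likelihood F test, TMM, filterByExpr with min.count 10 and min.total.count 15, no block), with Benjamini-Hochberg adjustment over all 16233 tested genes. Dates were tested with the mimic as a term. The SE of a log2 fold change was derived from its F value. A prior count of 2 entered the ratios of single dates. Alternatives used DESeq2 1.42.0 and limma 3.58.1. The date in the labels pairs an M219 with an NC library; their deviations from the group means correlated at 0.0466, 0.154 and 0.513 in date order. The common dispersion was 0.0292.

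The members and lists were chosen with earlier results of these data known. Named genes were the members, the 2 genes with the lowest p in each list, the nearest profile to each member, pseudogenes of members and AGO2; 1 gene so chosen is not reported here. H1FX-AS1, UNK and SLC35F6 were named for their overlap with members. Of the table's gene IDs, 45038 matched the reference names. Sequences came from RefSeq tables of GRCh38.p14. Fits were tested on simulated data. Plots were drawn with matplotlib 3.10.9 and pandas 2.3.3 (Python 3.11.15).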

Additional observations from a re-analysis of the deposited data

Results flagged for a closer look

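For 5 members the ratio of mimic to control pointed in opposite directions on different dates. Over all genes tested, 30.0% kept their sign on all 3 dates. With 1 library per group and date the difference between dates was not tested. The log2 ratios spanned 1.17 for CENPA, 1.09 for H2AFZ, 0.796 for H3F3B, 0.578 for H2AFX and 0.269 for H2AFV. H2AFZ and H3F3B were lowest against the control on 22 August, as were CENPA and H2AFV, and H2AFX was lowest on 5 September.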

How the results depend on the processing

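Precision is limited by 3 libraries per group and, for CENPA, by 141 to 311 counts per library. No member passed in the mimic comparison under any of 17 other settings (smallest adjusted p 0.639). Genes called between mimic and control numbered 0 in all and remained 0 with the replicate block in edgeR, limma-voom, RLE or upper-quartile scaling, with AGO2 and mitochondrial genes left out, and with any library or date left out. They were 20 with no filter on low counts, 5 with DESeq2 and 11 with DESeq2 and the block. The H3F3A share differed by −3.40 points with the block (exact sign-flip p = 0.25, the smallest it can give) and by −4.44 to −1.99 points with a library left out. The H2AFZ share differed by −2.34 points with the block (exact sign-flip p = 1) and by −5.23 to 0.737 with a library left out. The median of the members was −0.12 with the replicate block and ranged from −0.18 to −0.06 with a library left out. H3F3B was 0.15 and H2AFZ 0.0514 without both libraries of 22 August, and H3F3B ranged from −0.179 to 0.0782 with a library left out. Genes called between dates were 50 in the fit reported, 164 with the DESeq2 likelihood-ratio test, 576 with no filter, and 55 to 4239 with a library left out; the members called then ranged from 0 to 5. The cause of these changes was not tested.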
